A study of Rattus norvegicus with 4 samples.

Results

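Hormone receptor genes of brown and perivascular fat were followed in single-nucleus RNA-seq of the rat. The 9 genes were chosen by their symbols, out of 16625 genes with enough counts for a test over all nuclei. The rule sets no threshold on expression, but the genes were chosen with earlier results of these data known. They are Insr and Igf1r (receptors of insulin and of insulin-like growth factor), Ghr and Prlr (growth hormone and prolactin), Tshr (thyrotropin), Thra and Thrb (thyroid hormone), Esr1 (oestrogen receptor alpha) and Nr3c1 (the glucocorticoid receptor). All 9 had unique molecular identifiers (UMIs, counted transcript molecules) in adipocyte nuclei of every library. The animals were naïve male Dahl salt-sensitive rats (SS/HsdMcwiCrl) aged 16 weeks, a strain used as a model of salt-dependent hypertension, with no treatment and no transgene in any group. Of these, 2 libraries came from perivascular fat around the thoracic aorta (taPVAT) and 2 from the subscapular brown fat depot (BAT). The labels do not say whether the libraries of one tissue came from different rats or whether one rat gave both tissues, so p-values measure the spread between these samples, which may be technical. The tests of summed counts estimate that spread with all genes together. A p-value therefore does not rest on a gene's own spread alone.

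A hormone can act directly on a cell only if the cell carries its receptor. Insr and Igf1r encode tyrosine kinases of the plasma membrane that signal through insulin receptor substrates, phosphatidylinositol 3-kinase and AKT. Ghr and Prlr encode cytokine receptors that bind JAK2 and activate STAT5. Tshr encodes a G protein-coupled receptor that raises cyclic AMP, and Thra, Thrb, Esr1 and Nr3c1 encode nuclear receptors that bind DNA. In brown fat, thyroid hormone and insulin are known regulators of heat production and fuel uptake, and thyrotropin can act on adipocytes directly.

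The libraries held 44637 and 14765 barcodes (taPVAT replicates 1 and 2) and 36950 and 29552 barcodes (BAT replicates 1 and 2), against a target of 10000 nuclei in the labels, with 63654436 to 158140959 UMIs each and a median of 2602 to 4027 UMIs per barcode. Nuclei were assigned to classes by marker gene lists that contain none of the 9 receptors, and a class name below means only that the nuclei passed that list. It is not known how many barcodes were empty droplets, and every barcode kept is called a nucleus here. Of 100716 nuclei kept, 76944 (76.4%) were adipocyte, 7322 vascular endothelial, 3760 fibroblast, 1976 mural (smooth muscle and pericyte), 1421 myeloid, 769 T or NK lymphocyte, 300 B lymphocyte and 282 lymphatic endothelial nuclei. Adipocyte RNA was present in every class. The summed level of the 12 adipocyte markers was 24370 to 25320 CPM (UMI counts scaled to 1e+06 per class sum) in adipocyte nuclei and still 9644 to 17410 CPM in fibroblast nuclei. The ratio of a receptor's CPM in a class to its CPM in adipocytes of the same library was therefore set beside the ratios of those 12 markers, whose median ran from 0.399 to 0.713 in fibroblasts and from 0.649 to 0.798 in vascular endothelial, myeloid and T or NK nuclei. The libraries numbered 1 and 2 also stood apart in both tissues. The erythroid and platelet list summed to 149 and 176 CPM in adipocyte nuclei of the libraries numbered 1 and to 797 and 834 CPM in those numbered 2. Its part in any result below was not tested.

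Promoters of 8 of the 9 genes were found in RefSeq (build GRCr8, 250 bases before to 50 after the annotated start, 33469 such promoters searched). Those of Esr1, Prlr and Igf1r are shown, because these 3 receptors were higher in fibroblasts than in adipocytes. Capitals mark letters matching 1 of 5 motifs searched on both strands: TTCNNNGAA, the palindrome bound by STAT factors (in 8.87% of promoters), GGGCGG (33.1%), CCAAT (37.5%), TATAAA (14.2%) and AGGTCA, a nuclear receptor half-site (16.2%). In the promoters shown no match overlapped another, and AGGTCA occurred in none of the 9 genes' promoters found.
Esr1 promoter (chr1:43641845-43642144, plus strand): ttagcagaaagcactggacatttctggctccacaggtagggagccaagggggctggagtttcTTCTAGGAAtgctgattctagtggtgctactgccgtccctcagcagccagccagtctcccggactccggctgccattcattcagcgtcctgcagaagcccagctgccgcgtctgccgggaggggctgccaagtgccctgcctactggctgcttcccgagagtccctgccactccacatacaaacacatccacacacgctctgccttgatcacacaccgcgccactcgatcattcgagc
Prlr promoter at its second start (chr2:60909409-60909708, plus strand): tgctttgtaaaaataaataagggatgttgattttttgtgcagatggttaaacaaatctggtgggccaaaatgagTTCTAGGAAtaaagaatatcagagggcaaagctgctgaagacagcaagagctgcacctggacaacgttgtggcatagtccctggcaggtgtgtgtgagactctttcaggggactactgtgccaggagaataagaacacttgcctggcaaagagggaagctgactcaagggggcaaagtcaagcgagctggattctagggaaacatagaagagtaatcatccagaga
Prlr promoter at its first start (chr2:60861515-60861814, plus strand): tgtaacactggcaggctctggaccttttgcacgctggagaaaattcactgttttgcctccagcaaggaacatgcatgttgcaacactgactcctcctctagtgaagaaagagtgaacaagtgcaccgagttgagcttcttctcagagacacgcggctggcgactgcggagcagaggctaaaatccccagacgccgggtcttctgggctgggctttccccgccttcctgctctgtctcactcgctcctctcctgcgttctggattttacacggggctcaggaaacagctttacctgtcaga
Igf1r promoter (chr1:130959747-130960046, plus strand): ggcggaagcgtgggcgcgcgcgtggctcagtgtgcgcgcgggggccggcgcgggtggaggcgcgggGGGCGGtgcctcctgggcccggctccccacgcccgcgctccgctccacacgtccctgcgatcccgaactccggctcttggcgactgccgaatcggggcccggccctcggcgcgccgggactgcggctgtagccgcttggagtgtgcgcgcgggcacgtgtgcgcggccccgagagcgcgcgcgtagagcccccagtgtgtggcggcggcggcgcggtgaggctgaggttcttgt
The same 9 letters, TTCTAGGAA, stood in the Esr1 promoter and in the second Prlr promoter. The Igf1r promoter had 78% G and C against a median of 51.7% over all promoters, and 50 CpG dinucleotides against a median of 7. The Ghr promoter lay at the other side of that median, with 40% G and C and 0 CpG dinucleotides. Each match is a description of letters in this window.

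Adipocytes were compared between the tissues first, since the question is which fat depot could answer which hormone. Ghr and Esr1 were the receptors whose BAT libraries both lay above both taPVAT libraries in adipocyte nuclei. No receptor lay the other way. The 2 genes of 9 stand against 10.7% of 15561 genes with BAT higher in all libraries, and against 19.6% in either direction. None of the 9 differed at an adjusted p of 0.05 in edgeR's quasi-likelihood test, where 0 of 15561 genes were called (0%). At an unadjusted p under 0.05 that test had 321 genes, and DESeq2 called 57 genes at an adjusted p of 0.05.

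**Figure D1:**
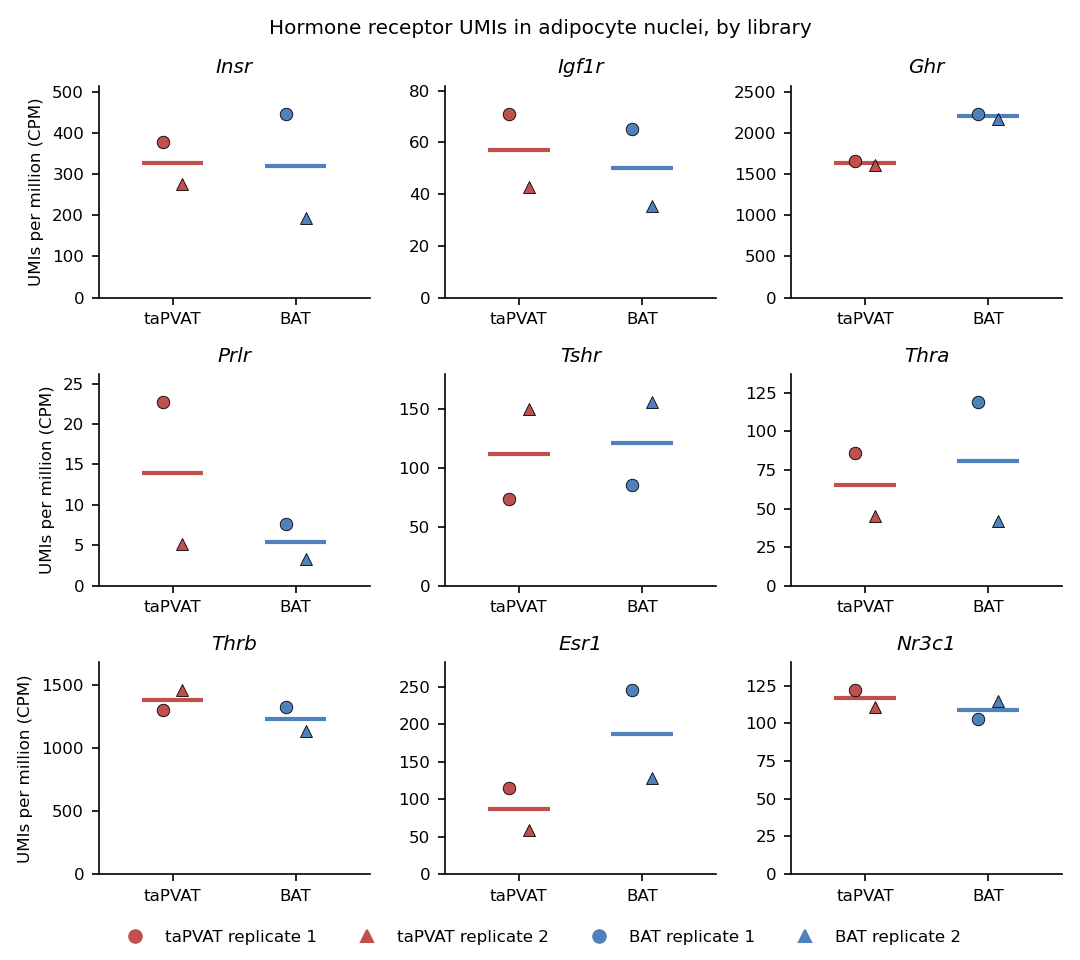
CPM (y axis from 0) of each receptor gene in the summed adipocyte nuclei of each library, with circles for replicate 1, triangles for replicate 2 and a line at the mean of each tissue. Ghr (1617 to 2236 CPM) and Esr1 (58.3 to 245.9 CPM) separate the tissues. For Esr1 as for Insr, Igf1r, Prlr, Tshr and Thra the 2 libraries of a tissue lie far apart.

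Insr, the insulin receptor, was at 379.5 and 276.4 CPM in the taPVAT adipocytes and at 447.5 and 193.7 CPM in the BAT adipocytes. The BAT libraries lay on either side of both taPVAT libraries, so the tissues overlapped. The log2 fold change of taPVAT over BAT was 0.09 with a standard error (SE) of 0.42, and its 95% interval ran from -0.95 to 1.12, so the data allow a difference of about that size in either direction. Igf1r, its relative for insulin-like growth factor, was at 71.1 and 42.9 CPM in taPVAT and at 65.1 and 35.3 CPM in BAT. In both tissues the library numbered 1 was the higher one, and the tissues overlapped (0.23, SE 0.38).

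Classes differed in Igf1r. It was higher than in adipocytes in 5 of the 7 classes tested: T or NK lymphocytes (log2 fold change 2.46, SE 0.13, edgeR adjusted p = 7.64e-84), fibroblasts (1.91, SE 0.21, adjusted p = 0.000274), mural nuclei (1.65, SE 0.17, adjusted p = 3e-05), vascular endothelium (1.52, SE 0.11, adjusted p = 1.22e-05) and myeloid nuclei (0.98, SE 0.13, adjusted p = 1.85e-06). These tests called many genes higher in the class: 13.5% in T or NK, 21.1% in fibroblasts, 17% in mural, 23.3% in vascular endothelial and 19% in myeloid nuclei. T or NK nuclei had 317 and 330 CPM of Igf1r in taPVAT and 413 and 340 CPM in BAT, which is 4.46 to 9.63 times the adipocyte level of the same library. In these nuclei both BAT libraries lay above both taPVAT libraries, as for 14.3% of genes, and the difference did not pass the test (-0.22, SE 0.26). Fibroblasts had 224 and 356 CPM in taPVAT and 207 and 154 CPM in BAT. Here the direction was the opposite, with both taPVAT libraries above both BAT libraries, as for 15.6% of genes in fibroblasts. The highest of these, taPVAT replicate 2, also stood apart in its marker lists. Its fibroblast list summed to 9329 CPM against 4813 to 5288 CPM in the other fibroblast libraries, its adipocyte list to 9644 against 15680 to 17410 CPM, and its erythroid and platelet list to 2178 against 117 to 301 CPM. Their part in the tissue difference was not tested. Ordered by mean CPM, Igf1r ran from T or NK (350.1 ± 42.7 SD, n = 4 libraries) through fibroblast (235 ± 86.1), mural (179.5 ± 36.1), vascular endothelial (168 ± 41.9) and myeloid (121 ± 22.9) to adipocyte (53.6 ± 17.2) and B lymphocyte nuclei (45.9 ± 20.9). Each class in this order overlapped the next in its range, except myeloid (94.8 to 149 CPM) and adipocyte nuclei (35.3 to 71.1 CPM). Lymphatic endothelial nuclei, summed in the 2 taPVAT libraries only, had 175.5 and 230 CPM, a difference from adipocytes that did not pass the test (1.47, SE 0.54, adjusted p = 0.091, where 6.04% of genes were called higher). The Igf1r locus overlaps Pgpep1l in the RefSeq annotation and no source used here states whether counting used strand, so reads of these genes cannot be told apart.

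Insr moved the other way. It was lower than in adipocytes in fibroblasts (log2 fold change -0.85, SE 0.20, edgeR adjusted p = 0.0124), vascular endothelium (-0.59, SE 0.11, adjusted p = 0.0026), myeloid nuclei (-0.66, SE 0.12, adjusted p = 0.000126) and T or NK nuclei (-0.67, SE 0.13, adjusted p = 1.68e-06). The shares of genes called lower were 16.9%, 21%, 19.3% and 15%. Its ratio to the adipocyte level was 0.616 to 0.868 in the last 3 of these classes, inside the range of the adipocyte markers found there, so no Insr level above carried-over adipocyte RNA was detectable there. Lymphatic endothelial (-0.77, SE 0.66, adjusted p = 0.77), B (-0.43, SE 0.17, adjusted p = 0.0698) and mural nuclei did not pass the test. Mural nuclei held 324 and 341 CPM in taPVAT and 331 and 261 CPM in BAT, a ratio of 0.739 to 1.35 that exceeded all 12 adipocyte markers in 2 of the 4 libraries (41.5% of expressed genes did in every library) and a log2 fold change of -0.11 (SE 0.15, 95% interval -0.45 to 0.23). In B nuclei the ratio was 0.753 to 1.08, above 5 to 11 of the 12 markers.

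Of 27 other genes of insulin and IGF signalling, 0 were called between the tissues in adipocytes (0%, as above), with a median log2 fold change of 0.02 beside 0.01 over all genes. The smallest p belonged to Igfbp3, an IGF carrier, at 3.28 and 2.90 CPM in taPVAT and 7.41 and 7.41 CPM in BAT. Tbc1d4, the AKT substrate that controls glucose transporter traffic, was at 1208 and 1836 CPM in taPVAT and at 818 and 936 CPM in BAT. It was 1 of 5 genes of the list without overlap, 2 with taPVAT higher and 3 with BAT higher, beside 19.6% of all genes. In fibroblasts against adipocytes 7 of the 27 genes were higher and 10 lower, where 21.1% of all genes were higher and 16.9% lower, with a median of -0.26 beside -0.05 over all genes. Igfbp3 was at 68.1 to 298 CPM in fibroblasts (29.1-fold over adipocytes), and Igf1, the growth factor itself, was at 298 to 556 CPM (6.17-fold). Igf2r, which clears IGF2, was 4.8-fold higher, and Grb10, an adaptor that binds both receptors, 21-fold higher. The 6 genes of smallest p in fibroblasts were all higher ones, and the lower ones are given as a count. In myeloid nuclei 4 of the 27 genes were higher and 14 lower (19% and 19.3% of all genes). The lower ones included Irs1 (0.578-fold) and Irs2 (0.607-fold), which encode insulin receptor substrates, and the kinase gene Akt2 (0.58-fold). Carried-over adipocyte RNA was not taken out of the folds here or in the lists below. The median ratio of the adipocyte markers was 0.661 to 0.791 in myeloid and 0.399 to 0.713 in fibroblast nuclei. Lower folds therefore do not show how much the class itself expressed.

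Ghr, the growth hormone receptor, was at 1660 and 1617 CPM in taPVAT adipocytes (mean 1638 ± 30.6 SD, n = 2) and at 2236 and 2168 CPM in BAT adipocytes (2202 ± 47.5, n = 2). The libraries of a tissue lay close together and the tissues did not overlap. The fitted log2 fold change of taPVAT over BAT was -0.38 (SE 0.28, 95% interval -1.07 to 0.31) and did not pass the test. The same direction held, again with no overlap, in fibroblasts (1356 and 865 against 2015 and 1814 CPM) and in vascular endothelial, mural, myeloid and T or NK nuclei. Among all genes, 10.5%, 8.39%, 12.3%, 11.8% and 14.3% had BAT higher without overlap in these 5 classes. These classes carry adipocyte RNA, so these values are not independent of the adipocyte ones. In adipocyte nuclei thinned to 1000 UMIs each, 71.9% and 69.2% of taPVAT nuclei and 81.6% and 79.5% of BAT nuclei had a Ghr UMI, a difference of -9.99 percentage points. An exact two-sided permutation test gave p = 0.33, the smallest that 2 against 2 libraries can give, and a Benjamini-Hochberg p of 1 over the 9 genes. Without thinning the shares were 91.4% and 94.95% against 96.5% and 94.0%, which overlap. At 1000 UMIs, T or NK nuclei, which carry adipocyte RNA, had a Ghr UMI in 57.3% and 38.0% in taPVAT. In BAT they had one in 51.2% and 52.3%, so a Ghr UMI alone does not mark a cell that expresses the gene.

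No class exceeded adipocytes in Ghr. It was called lower in vascular endothelium (-0.54, SE 0.12), mural (-0.70, SE 0.16), myeloid (-0.81, SE 0.12), T or NK (-0.67, SE 0.12) and B nuclei (-0.87, SE 0.17), with edgeR adjusted p from 8.32e-07 to 0.00837, where 14% of genes were lower in mural and 7.49% in B nuclei. In fibroblasts the Ghr ratio to adipocytes was 0.817 and 0.535 in taPVAT and 0.902 and 0.837 in BAT, above 10 to 12 of the 12 adipocyte markers in each library, and the difference from adipocytes missed the threshold (-0.61, SE 0.21, adjusted p = 0.0551).

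Prlr, the prolactin receptor, was the receptor set apart most by class. Fibroblasts held 143 and 109 CPM in taPVAT and 470 and 93.5 CPM in BAT, against 22.7 and 5.2 CPM and 7.6 and 3.29 CPM in adipocytes of the same libraries. The fibroblast level exceeded every adipocyte library, with a log2 fold change of 4.25 (SE 0.51, edgeR adjusted p = 0.000538). BAT replicate 1 lay far above the other fibroblast libraries. At 1000 UMIs per nucleus a Prlr UMI was seen in 12.4% (95% Wilson interval 10.8 to 14.3%) and 9.61% (7.49 to 12.3%) of taPVAT fibroblasts and in 31.4% (28.7 to 34.2%) and 10.6% (8.36 to 13.3%) of BAT fibroblasts. Intervals of this kind cover counting error only. In adipocytes the shares were 2.04% and 0.508% in taPVAT and 0.757% and 0.348% in BAT, and in T or NK nuclei 1.12%, 0%, 1.154% and 0.901%, where 0 of 71 nuclei allows up to 4.23% (3 counts over the total, not a Wilson limit). In no other class did Prlr exceed adipocytes by the test: it was 0.04 (SE 0.24) in vascular endothelium, -0.05 (SE 0.43) in mural and -0.55 (SE 0.27) in myeloid nuclei. Its ratio to adipocytes in BAT was 1.64 and 1.53 in vascular endothelium and 0.998 and 3.17 in mural nuclei, above all 12 adipocyte markers. In taPVAT the ratios were 0.8 and 0.547 in vascular endothelium and 0.709 and 0 in mural nuclei. Those of taPVAT replicate 2 rest on 5 and 0 UMIs.

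The small Prlr signal of adipocyte nuclei was set beside fibroblast RNA carried into them. The adipocyte level of Prlr was 15.9% and 4.79% of the fibroblast level in the taPVAT libraries and 1.62% and 3.52% of it in the BAT libraries (replicates 1 and 2 in turn). The same percentage for 13 fibroblast markers ran from 0.875 to 6.23%, 0.282 to 3.03%, 0.565 to 12% and 0.965 to 9.72%. Prlr thus exceeded all 13 markers in both taPVAT libraries and 4 and 7 of the 13 in the BAT libraries. Igf1r and Esr1 exceeded all 13 in every library, at 12 to 31.8% and 39.7 to 68.5% of the fibroblast level. The 13 markers also set the gate, which keeps their percentages low, while the receptors did not. Exceeding them therefore does not show a level above carried-over fibroblast RNA.

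Between the tissues, Prlr lay in opposite directions in these 2 classes, taPVAT over BAT being 1.38 (SE 0.71) in adipocytes and -1.17 (SE 0.63) in fibroblasts on the log2 scale, neither passing the test. The adipocyte change passed in 1 of 15 alternatives, the one with the replicate number as a model term (1.19, adjusted p = 6.78e-05, with adjusted p up to 1 over the others). Estimated in a joint fit of both classes, the difference between these was -2.05 (SE 0.53, 95% interval -3.22 to -0.89) and missed the threshold after adjustment (edgeR adjusted p = 0.65, where 4 of 15407 genes, 0.026%, were called). Each of the changes rests on a single library: without BAT replicate 1 the fibroblast change turned to 0.31, and without taPVAT replicate 1 the adipocyte change was 0.00. The difference kept its direction without any 1 library (-1.48 without BAT replicate 1 and -2.63 without BAT replicate 2). It passed the test without taPVAT replicate 1 (-1.33, adjusted p = 0.0322) and without taPVAT replicate 2 (-2.88, adjusted p = 0.000201), while adjusted p ranged from 5.99e-07 to 1 over all alternatives. Between vascular endothelium and adipocytes, the difference in the Prlr tissue change had the same sign (-1.16, SE 0.36, 95% interval -1.95 to -0.36). It did not pass the test, where 0 of 15039 genes were called (0%). Fibroblast nuclei of the tissues differed in other lists too. The mesothelial list summed to 101 and 194 CPM in taPVAT fibroblasts and to 1.51 and 1.92 CPM in BAT fibroblasts, and the lymphatic list to 130 and 195 against 8.55 and 16.8 CPM. Their part in the tissue values of fibroblasts was not tested.

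None of the 13 other genes of growth hormone and prolactin signalling was called between the tissues in adipocytes, and their median log2 fold change was -0.13 beside 0.01 over all genes. Stat3 was the 1 gene of the list with no overlap (19.6% of all genes had none), at 43.7 and 46.0 CPM in taPVAT and 54.4 and 85.9 CPM in BAT. In fibroblasts 3 of 12 tested genes were higher than in adipocytes and 4 lower (21.1% and 16.9% of all genes). Jak2, the kinase that both receptors use, was 1.95-fold higher in fibroblasts, 3.07-fold in myeloid and 2.94-fold in T or NK nuclei. Stat5a, which carries the signal to DNA, was lower in fibroblasts (0.587-fold). Cish and Socs2, targets of STAT5 that damp the signal, were lower in myeloid nuclei (0.528-fold and 0.553-fold). These lower folds include carried-over adipocyte RNA and do not show how much the class itself expressed.

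**Figure D2:**
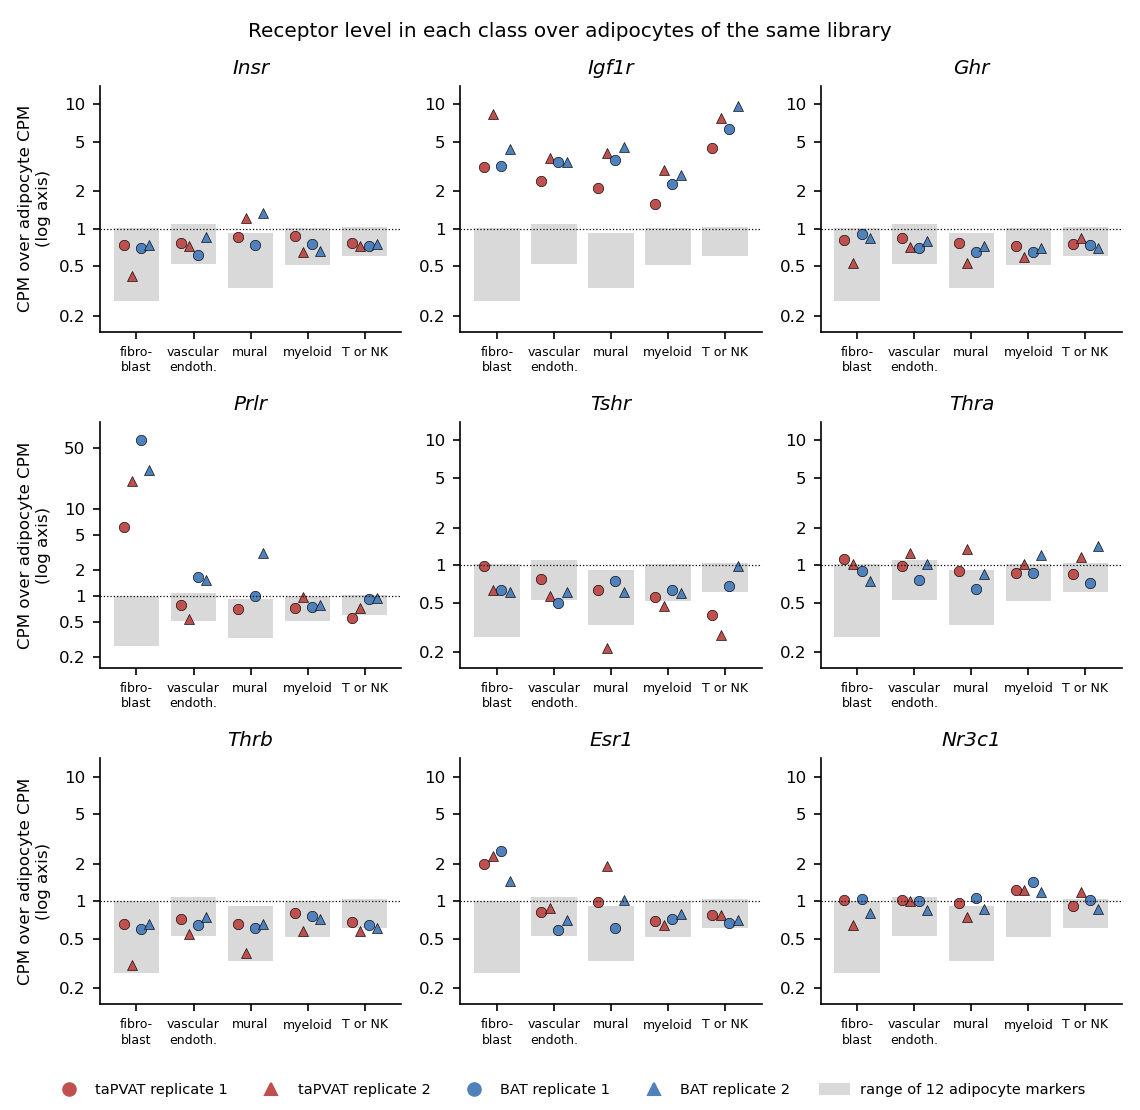
Level of each receptor in a class divided by its level in adipocytes of the same library (log y axis), with taPVAT and BAT libraries as coloured points and the range of the 12 adipocyte markers in grey. Prlr in fibroblasts (6.28 to 61.8 times) and Igf1r in fibroblasts, mural, endothelial, myeloid and T or NK nuclei lie above the grey range, and Thrb and Tshr lie mostly inside or below it.

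Tshr, the thyrotropin receptor, was at 74.1 and 150.7 CPM in taPVAT adipocytes and at 85.6 and 156.4 CPM in BAT adipocytes. Here the library numbered 2 was the higher one in both tissues, the tissues overlapped almost fully, and the log2 fold change was -0.05 (SE 0.49, 95% interval -1.25 to 1.14). Adipocytes had the highest level. Tshr was called lower in fibroblasts (-0.73, SE 0.16, edgeR adjusted p = 0.0109), vascular endothelium (-0.87, SE 0.13), mural (-1.02, SE 0.25), myeloid (-1.06, SE 0.13), T or NK (-1.05, SE 0.15) and B nuclei (-0.73, SE 0.21). In vascular endothelium its ratio to adipocytes (0.498 to 0.777) exceeded 0, 0, 3 and 6 of the 12 adipocyte markers, so no level above carried-over adipocyte RNA was detectable. In fibroblasts the ratio was 0.978 and 0.626 in taPVAT, above all 12 and 10 of the markers, and 0.629 and 0.613 in BAT, above 5 and 0 of them. In mural nuclei both BAT libraries (63.9 and 95.6 CPM) lay above both taPVAT libraries (46.7 and 32.2 CPM), and in T or NK nuclei likewise (57.8 and 153 against 29.4 and 41.3 CPM, from 11 to 49 UMIs a library). Neither difference passed the test (-1.0, SE 0.35, and -1.58, SE 0.54), although that of T or NK nuclei did with the replicate number as a model term (-1.34, adjusted p = 0.0159), alone among 15 alternatives with adjusted p up to 1.

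Thrb, which encodes the thyroid hormone receptor beta, was at 1305 and 1462 CPM in taPVAT adipocytes and at 1326 and 1140 CPM in BAT adipocytes. The libraries overlapped, with a log2 fold change of 0.22 (SE 0.29, 95% interval -0.49 to 0.93). It was lower than in adipocytes in 6 classes, from fibroblasts (-1.11, SE 0.25, edgeR adjusted p = 0.0105) to myeloid nuclei (-0.71, SE 0.13, adjusted p = 9.62e-05). In T or NK nuclei its ratio of 0.575 to 0.687 exceeded at most 1 of the 12 adipocyte markers in any library, and in fibroblasts (0.310 to 0.657) at most 2, so it lay at the low end of the marker range or below it. In myeloid nuclei (0.579 to 0.799) it exceeded 7, 1, 7 and 7 of the 12. Thra, the alpha form, was at 85.7 and 45.2 CPM in taPVAT and 119 and 42.0 CPM in BAT adipocytes. Its tissues overlapped (-0.25, SE 0.52) and the library numbered 1 was higher in both. No class differed from adipocytes in Thra by the test, from -0.19 (SE 0.10) in vascular endothelium to -0.64 (SE 0.57) in lymphatic endothelium. Thra overlaps Nr1d1 and Med24 in the annotation, so its counts may include their reads.

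Of 21 tested genes of thyrotropin and thyroid hormone signalling, 0 were called between the tissues in adipocytes and the median was 0.10 beside 0.01 over all genes. The genes without overlap were 3, beside 19.6% of all genes, each with taPVAT higher. They were Hr, a corepressor that thyroid hormone induces (19.3 and 19.6 against 14.02 and 10.7 CPM), Ncoa1, a coactivator of nuclear receptors (719 and 621 against 605 and 599 CPM), and Slco1c1, a thyroid hormone transporter near the detection limit (0.492 and 0.402 against 0.193 and 0.195 CPM). In fibroblasts 2 of 21 genes were higher than in adipocytes and 11 lower (21.1% and 16.9% of all genes), with a median of -0.52 beside -0.05. Rxrg, a partner of thyroid hormone receptors, was lower (0.507-fold), as were the cyclase gene Adcy6 (0.592-fold) and the transporter gene Slc16a10 (0.623-fold).

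**Figure D3:**
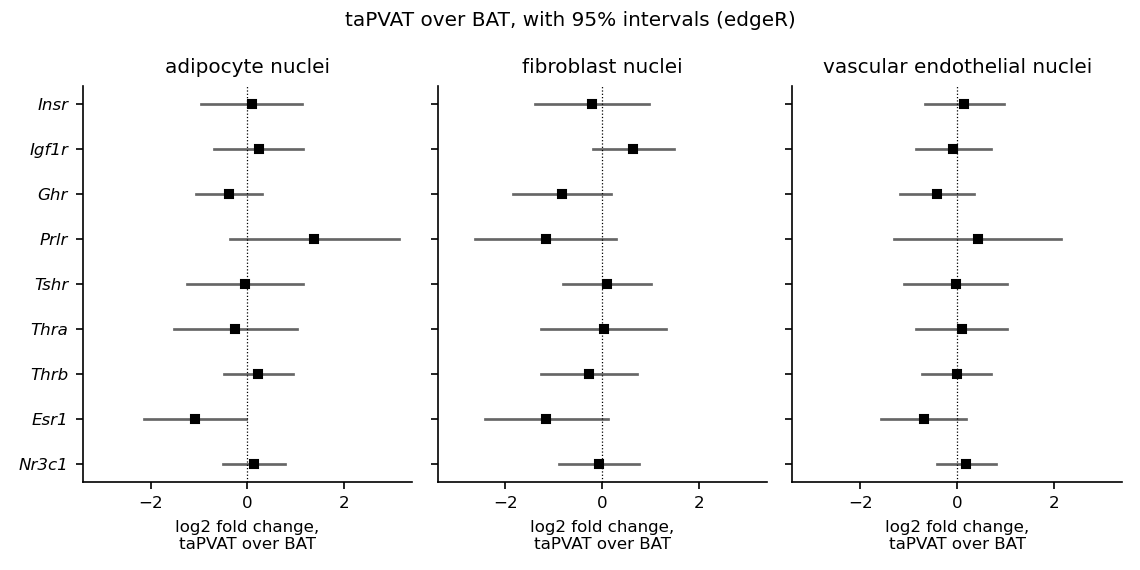
Log2 fold change of taPVAT over BAT (x axis) for the 9 receptors in adipocyte, fibroblast and vascular endothelial nuclei, with squares for the edgeR estimate and lines for its 95% interval. Every interval but that of Esr1 in adipocytes (-2.13 to -0.02) includes 0, and no receptor passes the adjusted threshold.

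Esr1, the oestrogen receptor, was at 115 and 58.3 CPM in taPVAT adipocytes (86.5 ± 39.8 SD, n = 2) and at 246 and 129 CPM in BAT adipocytes (187 ± 82.8, n = 2). The lower BAT library lay just above the higher taPVAT library, so the groups did not overlap by a narrow margin, and in both tissues the library numbered 1 was the higher one. The log2 fold change was -1.08 (SE 0.43, 95% interval -2.13 to -0.02) and did not pass after adjustment (edgeR adjusted p = 1). It passed in 1 of 15 alternatives, the one with the replicate number as a term of the model, and adjusted p ranged from 2.99e-06 to 1 over them. Leaving out a library moved the change between -1.62 and -0.64. The fibroblast list, which also set the gate, overlapped in adipocyte nuclei (92.2 to 120 CPM in taPVAT and 90.2 to 111 CPM in BAT). Lymphatic (11.3 to 23.9 against 4.66 to 7.055 CPM) and mesothelial lists (3.02 to 5.73 against 1.415 to 1.62 CPM) were higher in taPVAT. So was the myeloid list (37.0 to 39.7 against 31.4 to 35.4), while the proliferating list was lower (11.4 to 11.7 against 12.9 to 19.5). The part of these lists in the Esr1 change was not tested. At 1000 UMIs an Esr1 UMI was found in 9.48% and 5.40% of taPVAT adipocytes and in 18.8% and 10.8% of BAT adipocytes (difference -7.32 points, exact two-sided permutation p = 0.33, the smallest possible). Without thinning the shares were 21.9% and 18.4% against 46.0% and 26.3%. At 1000 UMIs, T or NK nuclei, which carry adipocyte RNA, had an Esr1 UMI in 4.87% and 2.82% in taPVAT and 11.5% and 5.41% in BAT.

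The fitted direction was the same in other classes. The log2 fold change of taPVAT over BAT in Esr1 was -1.16 (SE 0.55) in fibroblasts, -1.22 (SE 0.43) in myeloid, -0.85 (SE 0.41) in T or NK, -0.69 (SE 0.37) in vascular endothelial and -0.35 (SE 0.28) in mural nuclei, none passing the test. Those of myeloid (adjusted p = 0.000269) and vascular endothelial nuclei (adjusted p = 0.025) passed in 1 of 15 alternatives each, again the one with the replicate number as a term, and reached 1 in others. The tissues overlapped in fibroblasts (229 CPM in a taPVAT and 188 CPM in a BAT library) and vascular endothelium (93.7 and 91.6 CPM). The Esr1 ratio to adipocytes was 0.645 to 0.786 in myeloid, 0.671 to 0.779 in T or NK and 0.584 to 0.888 in vascular endothelial nuclei, and in none of these libraries did it exceed all 12 adipocyte markers. These values are thus not independent of the adipocyte ones. In fibroblasts 22 of 11015 genes were called (0.2%). In the other 4 classes edgeR called 0 genes (0%), with 102, 120, 229 and 303 genes at an unadjusted p under 0.05 and 1, 0, 8 and 7 genes called by DESeq2, in the order myeloid, T or NK, vascular endothelial and mural. The test of a difference between fibroblasts and adipocytes in this change, from the joint fit, gave 0.05 (SE 0.37, 95% interval -0.78 to 0.88).

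Fibroblasts had the highest Esr1 level of the classes with 4 libraries. They held 229 and 134 CPM in taPVAT and 619 and 188 CPM in BAT, and each lay above its own adipocytes, by 1.99, 2.30, 2.52 and 1.46 times. The log2 fold change was 0.81 (SE 0.16, edgeR adjusted p = 0.00708). This call held in 14 of 15 alternatives and was lost when library was not a term of the model (0.93, adjusted p = 0.233, with adjusted p from 0.000106 to 0.233 over the alternatives). Vascular endothelial (-0.59, SE 0.11), myeloid (-0.68, SE 0.12), T or NK (-0.70, SE 0.14) and B nuclei (-0.82, SE 0.21) were lower than adipocytes. Mural nuclei did not differ from adipocytes by the test (-0.09, SE 0.19), and their ratio exceeded all 12 adipocyte markers in 3 of 4 libraries. The fibroblast ratios of Esr1, Igf1r and Prlr exceeded all 12 adipocyte markers in every library, as did those of 45.9% of expressed genes in fibroblasts.

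None of 13 tested sex steroid genes was called between the tissues in adipocytes (median -0.06 beside 0.01). Esr2, the beta form of the oestrogen receptor, reached 0.347 to 0.426 CPM in adipocytes. In fibroblasts 5 of 12 genes were higher and 6 lower (21.1% and 16.9% of all genes). Among the higher ones were the coactivator Ncoa3 (2.13-fold) and Nrip1, a corepressor of oestrogen receptor signalling (1.91-fold), while Esrrg was lower (0.499-fold).

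Nr3c1, the glucocorticoid receptor, had similar levels in all libraries. It was at 122 and 111 CPM in taPVAT adipocytes and at 103 and 115 CPM in BAT adipocytes, overlapping, with a log2 fold change of 0.14 (SE 0.26, 95% interval -0.50 to 0.78). No class differed from adipocytes by the test. Myeloid nuclei had 149 and 136 CPM in taPVAT and 147 and 136 CPM in BAT. These levels were 1.19 to 1.42 times the adipocyte level, above all 12 adipocyte markers in each library, as 36.6% of expressed genes were, with a fitted change of 0.12 (SE 0.11).

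Of 17 tested genes of glucocorticoid signalling, 0 were called between the tissues in adipocytes (median -0.15 beside 0.01). Zbtb16, which glucocorticoids induce, was at 129 and 168 CPM in taPVAT and 122 and 97.6 CPM in BAT. Fkbp5, a chaperone of the receptor and a classic glucocorticoid target, was at 8.48 and 10.8 against 12.6 and 13.1 CPM. Of the 18 genes of the list, 5 had BAT higher and 2 taPVAT higher without overlap, beside 19.6% of all genes in either direction. In fibroblasts 5 of 17 genes were higher and 3 lower (21.1% and 16.9% of all genes). Hsd11b1, the enzyme that regenerates active glucocorticoid, was 5.28-fold higher in fibroblasts and 5.12-fold in myeloid nuclei. Fkbp5 was 5.09-fold and Cebpd 14.4-fold higher in fibroblasts, and Tsc22d3, another induced gene, was 2.45-fold higher in myeloid and 2.92-fold in T or NK nuclei.

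Receptors differed in how evenly their UMIs were spread over adipocytes. The variance of UMIs per nucleus over their mean, which is 1 for counts placed at random, was 1.503 to 2.09 for Tshr and 1.01 to 1.09 for Nr3c1 across the 4 libraries, at similar mean counts of 0.0798 to 0.1754 and 0.0978 to 0.119 UMIs. Esr1 had 1.19 to 1.68 and Ghr 1.67 to 2.22, while Insr (1.04 to 1.05) and Thra (1.01 to 1.02) lay near 1. For uneven counts this ratio also rises with the mean, so it does not compare genes of unlike mean. The mean was 1.58 to 2.15 UMIs for Ghr and 0.0445 to 0.123 for Thra. Thrb, at means of 1.09 to 1.41, had 1.22 to 1.27. Tshr and Esr1 were found in the same adipocytes more often than their shares alone would give, by 1.94 to 3.26 times in the 4 libraries. Prlr joined them, at 1.64 to 2.90 times with Tshr and 1.47 to 4.53 times with Esr1, from as few as 14 and 10 nuclei in a library. Its ratio also exceeded 1 in every library with Igf1r (1.31 to 2.00) and Thra (1.01 to 3.003), from as few as 3 nuclei. Ghr with Tshr gave 1.11 to 1.21 times, above 1 in all 4 libraries. Thrb with Tshr gave 0.994 to 1.05 times and Insr with Ghr 1.01 to 1.03 times.

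Genes of those adipocytes were then ranked by the lowest of their 4 library ratios between nuclei with and without a Tshr UMI, over 4916 genes. Clmp, which encodes an adhesion molecule, led with 11.3 to 23.4 times. Kcnip1, a subunit of potassium channels, followed with 10.1 to 20.6 times and Kcnn3, a calcium-gated potassium channel, with 8.37 to 15 times. Anxa1 (6.50 to 12.7), Ca3, a carbonic anhydrase abundant in white fat (4.11 to 6.87), and Nnat (4.02 to 9.36) were also among the first 10. Lep, which encodes leptin, was 1.68 to 5.29 times and Ghr 1.41 to 1.59 times as high with a Tshr UMI. Lower were Ucp1, the uncoupling protein of brown fat heat production (0.706 to 0.768 times), Cidea (0.757 to 0.838) and Ppargc1a (0.814 to 0.923). Lep, Ghr, Ucp1, Cidea and Ppargc1a were looked up by name and not taken from the first 10. Adipoq and Insr were looked up too, and their values are not given here. Nuclei with a Tshr UMI were deeper in 3 of the 4 libraries, at a median of 3753 against 2986 UMIs and 4898 against 4907 UMIs in taPVAT and 3961 against 3785 and 3043 against 2683 UMIs in BAT. The part of depth in these ratios was not tested. Nuclei with an Esr1 UMI were led by Clmp, Kcnn3, Pxdn and Kcnip1, and Tshr was sixth of 4837 genes (1.98 to 3.68 times). Those nuclei were deeper in all 4 libraries, at a median of 3730, 5208.5, 4442 and 3333 UMIs against 2931.5, 4862, 3431 and 2570 UMIs.

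**Figure D4:**
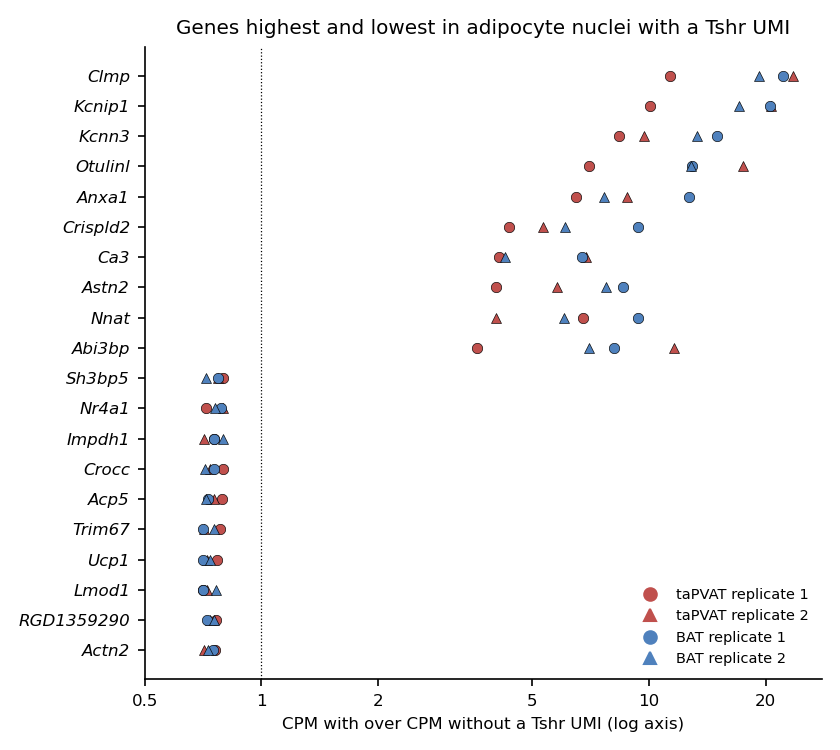
CPM in adipocyte nuclei with a Tshr UMI over CPM in those without (log x axis) for the 10 highest and 10 lowest genes, 1 point per library. Clmp, Kcnip1 and Kcnn3 lie at 8.37 times or above in all 4 libraries and Ucp1 lies between 0.706 and 0.768.

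Kcnip1 came second in the ranking by Tshr and was chosen from it after its values were seen. Its overlap with Tshr therefore restates that ranking, and what follows is a description. At 1000 UMIs it had a UMI in 5.78% and 6.06% of taPVAT adipocytes and 8.71% and 7.07% of BAT adipocytes. Tshr was found in 34.6% (95% Wilson interval 32.3 to 37.0%) and 55.2% (51.0 to 59.4%) of these Kcnip1 nuclei in taPVAT and in 41.9% (39.7 to 44.1%) and 51.3% (48.5 to 54.0%) in BAT, against 4.50%, 7.84%, 4.05% and 6.81% of the remaining adipocytes. In T or NK nuclei, whose Tshr CPM lay below that of adipocytes in every library, its share was 4.49%, 0%, 1.54% and 6.31%, where 0 of 71 nuclei allows up to 4.23%. The share of adipocytes without Kcnip1 lay above that background in taPVAT replicate 2. In BAT replicate 1 it was higher, but the Wilson intervals overlapped (3.79 to 4.34% in these adipocytes and 0.600 to 3.89% in T or NK nuclei). Those of myeloid (2.25 to 5.81%) and fibroblast nuclei (2.45 to 4.64%) included it. In taPVAT replicate 1 and BAT replicate 2 it lay within the T or NK intervals (2.59 to 7.69% and 3.09 to 12.4%). Vascular endothelial intervals lay below this share in taPVAT replicate 2 (1.71 to 4.74%) and BAT (1.96 to 3.425% and 3.42 to 5.39%). In taPVAT replicate 1 the vascular endothelial interval included it (3.61 to 5.06%). In BAT replicate 2 the Tshr level of T or NK nuclei was 0.978 times that of adipocytes, above all 12 adipocyte markers, so it is not shown to be background there. Esr1 was found in 45.7% and 25% of the Kcnip1 nuclei of taPVAT and 53.6% and 23.5% of those of BAT, against 7.26%, 4.14%, 15.5% and 9.79%. These shares without Kcnip1 lay within the Esr1 Wilson intervals of T or NK nuclei in all 4 libraries. Those intervals were 2.87 to 8.15% and 0.776 to 9.70% in taPVAT and 8.20 to 16.0% and 2.50 to 11.3% in BAT. The vascular endothelial intervals, from more nuclei, lay below the shares without Kcnip1 in all 4 libraries. They were 5.02 to 6.69% and 1.11 to 3.72% in taPVAT and 7.46 to 10.0% and 3.31 to 5.26% in BAT. Myeloid intervals also lay below, fibroblast intervals lay above, and mural ones varied by library. The reading thus depends on the class taken as background. Ghr was found in 87.5 to 92.8% with and 67.7 to 80.5% without a Kcnip1 UMI, and in 38.0 to 57.3% of T or NK nuclei. The share with a Kcnip1 UMI over the share without it was 7.04 to 10.3 for Tshr, 2.4 to 6.3 for Esr1 and 1.51 to 5.02 for Prlr across the 4 libraries. It was at most 1.37 for Ghr, 1 to 1.39 for Insr, 1.01 to 1.36 for Nr3c1, 0.863 to 1.02 for Thrb, 0.836 to 1.34 for Thra and 0.81 to 1.28 for Igf1r. For Ghr the Wilson intervals with and without Kcnip1 separated in all 4 libraries, and for Nr3c1 in 3 of the 4. They also separated for Insr in BAT replicate 2 (22.4% with and 16.1% without), for Thrb in taPVAT replicate 2 (61.9% with and 71.8% without) and for Thra in BAT replicate 1 (9.75% with and 11.7% without).

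**Figure D5:**
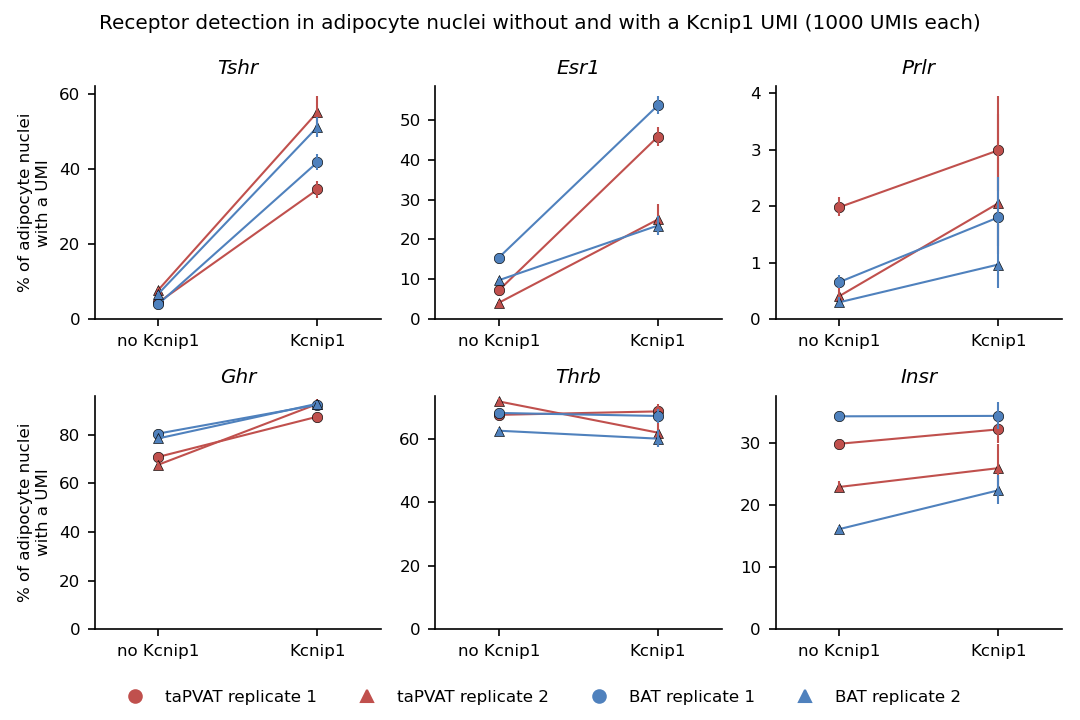
Share of adipocyte nuclei with a UMI of each receptor (y axis, % from 0, nuclei thinned to 1000 UMIs) without and with a Kcnip1 UMI, 1 line per library with 95% Wilson intervals. With Kcnip1, Tshr lies between 34.6 and 55.2% and Esr1 between 23.5 and 53.6%, above the nuclei without it in all 4 libraries, while the ratio of the shares is 1 to 1.39 for Insr and 0.863 to 1.02 for Thrb.

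For each receptor the genes with the most similar level were found by Pearson correlation of log2(CPM + 1) over 31 class and library sums, among 10312 genes that reach 20 CPM in some sum. These sums share libraries, depth and adipocyte RNA, so the values are given without a test. Among the 3 genes most like Prlr were the fibroblast genes Dpt (r = 0.821) and Ctsk (0.812), and Esr1 was most like Cxcl14 (0.872), Tbx15 (0.826) and Snx21 (0.819). Thrb was followed most closely by Adra1a, an adrenergic receptor (0.950), Lrp6 (0.933) and Rreb1 (0.930), and Ghr by Dpyd (0.919), Kctd18 (0.904) and Tfrc (0.892). The nearest genes were Mapt for Insr (0.870), Spata6 for Igf1r (0.840), Tmem11 for Tshr (0.781), Arhgef11 for Thra (0.907) and Bloc1s4 for Nr3c1 (0.833).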

How the data were processed

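Single-nucleus libraries (10x 3' gene expression) were made from about 50 mg of frozen tissue each. The deposited matrices hold raw UMI counts per gene and barcode, made by the authors with Cell Ranger 7.1.0 on the rat build Rnor_6.0, per the submitters' processing notes. Whether introns and strand were counted is not given in the sources used here. Barcodes with at least 500 genes were kept. Doublets were scored per library with Scrublet (scanpy 1.11.5) and removed (4629, 816 and 4098 barcodes). In BAT replicate 1 it called 0, and 6402 barcodes with the highest scores were removed there by a rule based on the other libraries. Libraries shared 126 to 424 barcodes (0.853 to 1.29% of the smaller one).

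A nucleus joined a non-adipocyte class with at least 3 or 4 markers of its list detected. In fibroblasts, 320, 106, 255 and 199 nuclei lay exactly at that limit of 4. Counts were summed per library and class (at least 20 nuclei) and tested with edgeR 4.0.16 (TMM, filterByExpr, quasi-likelihood, Benjamini-Hochberg over all genes of a fit). Class comparisons had library as a block. SE is the fold change over the root of F. DESeq2 1.42.0 was an alternative. Tested on simulated data with the same fixed spread for every gene, the fits recovered the larger planted changes and only part of the smaller ones. The real spread differed by gene, with tissue SEs in adipocytes from 0.26 for Nr3c1 to 0.71 for Prlr. The simulation therefore does not give the power of the real tests. Members, marker lists, pathway lists and tests were chosen with earlier results of these data known. All 9 receptors are named. From each pathway list, genes called in a comparison (at most 6, smallest p first) and the 3 of smallest p in adipocytes could be named, and those whose tissues do not overlap were added after their values were seen. Kcnip1 was also chosen after its values were seen. Schwann and mesothelial nuclei were too few to compare. A few genes of the lists are not reported here.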

Additional observations from a re-analysis of the deposited data

How the results depend on the processing

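Depth limits the smaller classes, from 50 to 111 B nuclei in BAT and 37 to 102 in taPVAT, and 2 libraries a tissue limit every tissue test. The gate and an unsupervised clustering gave the same name to 96.5% of adipocyte, 89.5% of fibroblast and 63.7% of vascular endothelial nuclei. Among alternatives for a receptor's fold change, 410 kept direction and side of the threshold, 16 turned the direction, 12 newly passed and 1 lost the call. The number of called genes stayed within 1.5 times in 152 alternatives and moved further in 77.

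For taPVAT over BAT, the calls of DESeq2 were 104 over all nuclei, 57 for adipocytes, 89 in fibroblasts, 8 in vascular endothelial, 7 in mural and 1 in myeloid nuclei. Without a filter on low counts edgeR called 60, 47, 239, 74 (mural), 20 (myeloid) and 7 (T or NK), beside 16 and 97 for the differences of vascular endothelium and of fibroblasts from adipocytes. Fibroblast calls (22) became 12 with RLE scaling, 9 with at least 1000 genes per nucleus, 0 with at most 10% mitochondrial UMIs, 3 with classes from clusters and 0 with the 10000 deepest barcodes per library, an alternative chosen after seeing the data. The 4 genes whose tissue change differed between fibroblasts and adipocytes became 0, 62, 0 and 0 with RLE scaling, the mitochondrial limit, clusters and the deepest barcodes.

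The labels do not pair the libraries. Same-numbered libraries deviated together (r = 0.84 over 5756 genes in all nuclei, 0.86 over 5542 in adipocytes and 0.50 over 6314 in fibroblasts), but there are only 2 numbers. With the replicate block, calls were 386 in all nuclei, 487 in adipocytes (3.13%), 209 in fibroblasts, 190 in vascular endothelial, 3 in mural, 63 in myeloid and 54 in T or NK nuclei. Esr1 then passed in adipocytes (-1.08, adjusted p = 2.99e-06), all nuclei (-1.03, adjusted p = 0.00221), vascular endothelium (-0.73, adjusted p = 0.025) and myeloid nuclei (-1.23, adjusted p = 0.000269), Prlr in adipocytes (1.19, adjusted p = 6.78e-05) and Tshr in T or NK nuclei (-1.34, adjusted p = 0.0159), where the adjusted p of each reached 1 in other alternatives. The block changed no other call followed here. It leaves little of a gene's own spread, and the SE in adipocytes was 0.24 for Prlr and 0.18 to 0.19 for the other receptors. These adjusted p-values thus rest largely on a spread shared across genes.

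For a class over adipocytes, calls without the library block were 3258 in fibroblasts, 3098 in vascular endothelium, 2505 in mural, 2695 in myeloid, 1581 in T or NK and 813 in B nuclei. With at most 10% mitochondrial UMIs they were 3173, 3859, 2544, 2957, 1777 and 469, and with the deepest barcodes 1686, 3764, 2056, 2151 (T or NK), 335 (B) and 413 (lymphatic). B nuclei had 893 with at least 1000 genes and 2920 with clusters. Igf1r in lymphatic nuclei passed with RLE scaling (adjusted p = 0.0455) and without library block (adjusted p = 0.0297), with adjusted p up to 0.397 over its alternatives. The Prlr difference between fibroblasts and adipocytes passed without the low-count filter (-2.03, adjusted p = 5.99e-07) and with the mitochondrial limit (-2.26, adjusted p = 3.66e-06).

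Directions turned for Tshr in adipocytes without doublet removal (0.03) and with the deepest barcodes (0.07), for its share with 2000 UMIs (0.0775 points) and without thinning (1.23 points), for the Esr1 difference between fibroblasts and adipocytes with a stricter gate (-0.05) and for Nr3c1 in myeloid nuclei with clusters (-0.04). The cause of these changes was not tested.

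Leaving out 1 library (a lone library is then assumed to vary like the others), calls for taPVAT over BAT ranged from 0 to 102 in all nuclei, 0 to 101 in adipocytes, 64 to 184 in fibroblasts, 0 to 13 in vascular endothelium, 15 to 74 in mural, 0 to 18 in myeloid and 0 to 4 in T or NK nuclei. For a class over adipocytes they ranged from 3524 to 5483 in fibroblasts, 4570 to 6095 in vascular endothelium, 3078 to 4167 in mural, 4373 to 5221 in myeloid, 2732 to 3426 in T or NK and 1159 to 1807 in B nuclei, and for the differences from adipocytes from 13 to 1342 in fibroblasts and 0 to 14 in vascular endothelium. In adipocytes the log2 change of taPVAT over BAT then ranged from -0.37 to 0.70 for Insr, -0.16 to 0.63 for Igf1r, -0.73 to 0.50 for Tshr, -0.80 to 0.57 for Thra and -0.03 to 0.26 for Nr3c1. It ranged from -1.88 to 0.31 for Prlr in fibroblasts and from -0.40 to 0.42 for the Esr1 difference. Shares ranged from -7.74 to 9.99 points for Insr, -0.657 to 1.96 for Igf1r, -0.044 to 1.49 for Prlr, -2.41 to 2.06 for Tshr and -5.06 to 2.13 for Thra.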
